A study of Mus musculus with 12 samples.

Results

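The genes described are 50 cell cycle and DNA replication genes, read in lymphatic endothelial cells (LECs) sorted from mouse lungs. They were picked by symbol through GENCODE M21, from the D-type cyclins of early G1 to the proteins that pull chromosomes apart, and all 50 were found among the 52636 gene identifiers of each count file. All 50 also passed the filter on low counts, so that none is missing from the 21440 genes tested. The mice were Prox1-EGFP reporters, in which a fluorescent protein is made under control of Prox1, the transcription factor of lymphatic identity, and both sexes were used. LECs were sorted as live cells positive for CD31 and the reporter and negative for EPCAM and a lineage cocktail. Acute groups were exposed to whole-body cigarette smoke (CS) or kept in room air (RA) for 8 weeks, which left 2 CS and 2 RA libraries. Chronic groups were exposed for 24 weeks or more, which left 5 CS and 3 RA libraries. Exposure began at 6 weeks of age and RA mice were age-matched. The labels give 8 weeks as the age of the acute groups and call the chronic groups aged. LECs of 2 to 5 mice were pooled for a library at the 8-week CS time point, while chronic CS samples came from single mice. Each library is called by its group and the sex and number of its label (F, M, M1 to M4).

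The cell cycle turns on the timed making and breaking of cyclins, the partners that switch on cyclin-dependent kinases (CDKs). D-type cyclins with CDK4 and CDK6 free the E2F transcription factors from the retinoblastoma protein, E2F then turns on the genes that license origins and build DNA, and a later wave led by MYBL2 and FOXM1 turns on the genes of G2 and mitosis. Endothelial cells of adult lung are mostly at rest, and in a resting cell the genes of mitosis are among the least expressed of this set. In RNA of a bulk sample, a higher level of a mitotic gene can come from more cells in cycle, more RNA per cell or other cells in the sample. These cannot be told apart here.

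The promoters of these genes carry short letters known from such waves. RefSeq promoter windows of GRCm38.p6, 250 bases before to 50 bases after a transcript start, were at hand for 38 of the 50 members. They were searched on both strands for the cell cycle homology region (CHR, TTTGAA), which recruits the MYBL2 and FOXM1 complexes, for the box of the factor NF-Y (CCAAT), and for E2F letters, given as any of TTTGGCGC or TTTCCCGC or TTTCGCGC or TTTGCCGC. The CHR was found in 10 of 15 promoters of genes for G2, mitosis and the spindle (66.7%), against 20.2% of the promoters of all 27025 genes in the table. All 10 of these held the NF-Y box as well, a pair found in 8.97% of all genes. The E2F letters were found in 7 of 10 promoters of origin licensing and helicase genes (70.0%) but in 2.60% of all genes and in 0 of 5 promoters of DNA synthesis genes. Different kinds of motif overlapped in 1 promoter of a member. A match is only a match of letters, and no binding was measured in these cells.

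**Figure D1:**
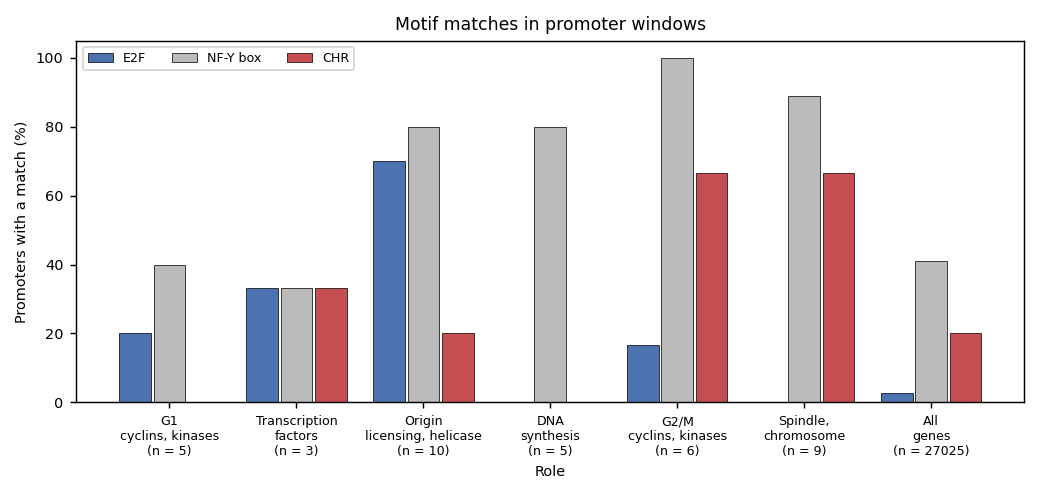
Bars give the percent of promoter windows that hold each kind of letters (vertical axis) for the 6 roles of the members and for all genes of the table, with the number of genes with a promoter below each role. E2F letters stand highest in origin licensing and helicase genes (70.0%), and the CHR in both mitotic roles (66.7% in each).

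The 250 bases before the start of 4 mitotic genes show the layout, with matches in capitals and each sequence written 5′ to 3′ on the strand of its gene. Mki67 encodes the proliferation marker Ki-67 and lies on the minus strand at chr7:135716380-135716629 (GRCm38), and its window has 2 CHR and 3 NF-Y matches. Top2a encodes the topoisomerase that untangles chromosomes, at chr11:99024190-99024439 on the minus strand. Cdk1 encodes the kinase that drives entry into mitosis, at chr10:69352913-69353162 on the minus strand, and it alone of the mitotic promoters also holds E2F letters. Ccnb2 encodes a B-type cyclin, the partner of CDK1, at chr9:70421555-70421804 on the minus strand.
Mki67: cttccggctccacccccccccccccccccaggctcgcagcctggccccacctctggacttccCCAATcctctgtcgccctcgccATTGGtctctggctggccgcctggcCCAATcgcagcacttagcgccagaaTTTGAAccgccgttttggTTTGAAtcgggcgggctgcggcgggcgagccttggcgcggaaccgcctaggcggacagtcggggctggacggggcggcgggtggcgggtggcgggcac
Top2a: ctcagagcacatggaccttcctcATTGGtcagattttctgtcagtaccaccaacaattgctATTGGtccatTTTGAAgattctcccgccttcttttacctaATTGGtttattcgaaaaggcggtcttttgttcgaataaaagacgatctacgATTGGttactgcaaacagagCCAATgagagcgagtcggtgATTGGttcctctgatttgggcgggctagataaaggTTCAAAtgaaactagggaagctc
Cdk1: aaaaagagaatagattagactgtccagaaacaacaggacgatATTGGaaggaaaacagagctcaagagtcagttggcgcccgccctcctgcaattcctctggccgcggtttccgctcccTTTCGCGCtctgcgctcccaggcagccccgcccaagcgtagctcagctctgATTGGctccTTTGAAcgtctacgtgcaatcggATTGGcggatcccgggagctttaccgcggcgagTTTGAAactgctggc
Ccnb2: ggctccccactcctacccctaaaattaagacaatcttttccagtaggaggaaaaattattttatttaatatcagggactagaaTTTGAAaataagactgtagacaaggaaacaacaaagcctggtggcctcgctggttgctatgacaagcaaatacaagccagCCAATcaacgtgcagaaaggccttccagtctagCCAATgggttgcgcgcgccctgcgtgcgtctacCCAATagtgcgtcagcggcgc

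The windows of 2 genes of the MCM helicase, the ring that opens DNA at origins, are shown beside them for contrast. Mcm6 lies on the minus strand at chr1:128359706-128359955 and Mcm5 on the plus strand at chr8:75109259-75109508, and in both the E2F letters run together on the 2 strands into a longer stretch of capitals.
Mcm6: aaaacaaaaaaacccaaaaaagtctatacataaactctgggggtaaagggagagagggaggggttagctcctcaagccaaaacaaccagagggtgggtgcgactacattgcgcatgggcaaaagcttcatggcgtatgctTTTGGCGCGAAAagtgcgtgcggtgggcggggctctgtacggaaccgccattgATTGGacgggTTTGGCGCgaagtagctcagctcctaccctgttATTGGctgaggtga
Mcm5: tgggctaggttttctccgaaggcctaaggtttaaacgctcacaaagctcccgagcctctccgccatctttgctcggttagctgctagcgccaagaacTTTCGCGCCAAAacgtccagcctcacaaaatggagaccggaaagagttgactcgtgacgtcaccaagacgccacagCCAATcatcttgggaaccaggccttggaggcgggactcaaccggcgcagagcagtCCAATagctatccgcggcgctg

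Levels are compared between genes only per length, as FPKM over the merged exon length of the gene, and over the 5 RA libraries of both time points. Cdk4, the G1 kinase, stood highest with 63.5 ± 5.28 FPKM (SD, n = 5), followed by Pcna, the sliding clamp of DNA polymerases, with 26.6 ± 3.02 FPKM. The ranges of both were clear of the next gene in the order, whereas the RA ranges of neighbours overlapped in 47 of the 49 steps down the order. Mcm3 (17.0 ± 3.32 FPKM) and the 3 D-type cyclins Ccnd3 (16.4 ± 0.666), Ccnd2 (15 ± 4.09) and Ccnd1 (14.9 ± 10.2) came next and were not separated from each other. In all, 10 members exceeded 10 FPKM, 20 lay from 1 to 10 FPKM and 20 lay below 1 FPKM. The low band held 8 of the 10 spindle and chromosome genes and 3 of the 4 transcription factors, but 0 of the 6 DNA synthesis genes and 1 of the 8 G1 cyclins and kinases. Mki67 stood at 0.560 ± 0.136 FPKM and Top2a at 0.536 ± 0.180 FPKM. The spindle genes outside the low band were Cdc20, the activator of anaphase (6.62 ± 1.58 FPKM), and Cenpa, the centromere histone (4.40 ± 0.832 FPKM). Cdc25b, a phosphatase that activates CDK1, was the only gene of the G2 and M role above 10 FPKM (11.3 ± 1.65).

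**Figure D2:**
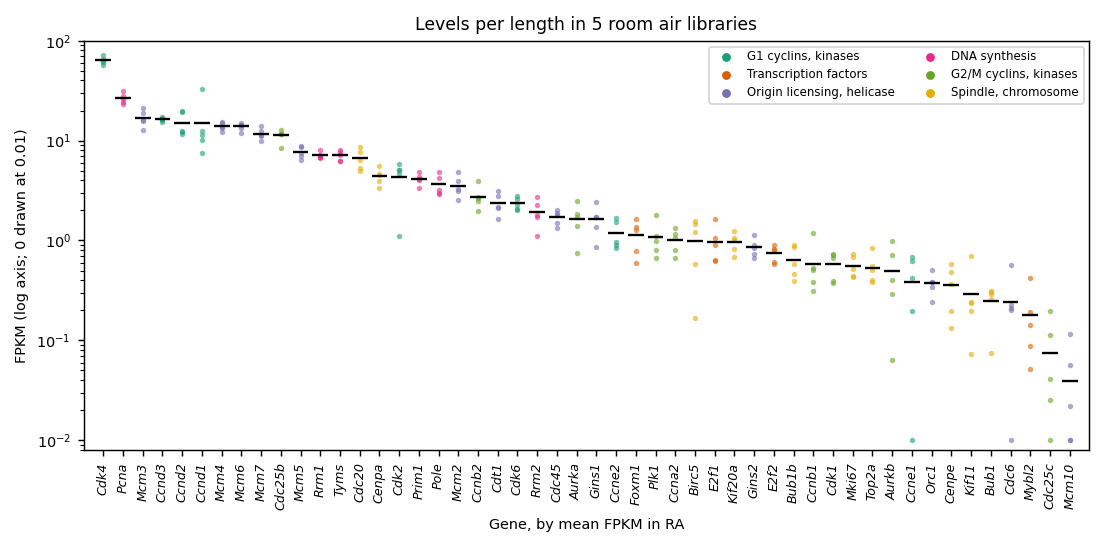
Points are the 5 RA libraries and lines their mean, in FPKM on a log axis, for the 50 members ordered by mean level and coloured by role. Cdk4 (63.5 FPKM) and Pcna (26.6 FPKM) stand above the rest, and spindle genes such as Mki67 (0.560 FPKM) lie mostly in the right part.

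All further levels are CPM, the share of a library's counts taken by a gene, scaled by the library total and edgeR's TMM factors. Libraries held 18821438 (chronic CS F) to 56998590 (acute RA F) counts, so that 3 counts correspond to 0.158 and 0.0507 CPM, a floor that covers counting error only. The acute CS libraries stood apart in markers of other cells. Of the 8 lymphatic markers tested, 3 were lower after acute CS (Prox1, Flt4 and Nrp2, edgeR adjusted p under 0.05), and the summed level of the list was 6485 CPM in acute CS F and 9822 CPM in acute CS M against 15250 and 17070 CPM in acute RA. Higher after acute CS were 7 of 8 leukocyte, 9 of 12 blood endothelial, 5 of 11 mesenchymal, 4 of 11 alveolar macrophage (1 lower), 3 of 10 lymphoid and 1 of 10 alveolar epithelial markers, and 0 of 6 neutrophil and 0 of 6 erythroid markers tested (5 and 0 of them at an unadjusted p under 0.05). Of all genes, 2.75% were called higher after acute CS and 0.723% lower, and 10.7% were higher at an unadjusted p under 0.05. Leukocyte markers summed to 2324 and 1609 CPM in acute CS F and M, against 254 to 258 CPM in acute RA. In chronic CS 0 markers of any list were called, where 0 of all genes (0%) were. Of these lists, at an unadjusted p under 0.05, 8 of 11 mesenchymal, 7 of 10 alveolar epithelial, 4 of 6 neutrophil, 4 of 8 leukocyte, 4 of 12 blood endothelial (1 lower), 3 of 11 alveolar macrophage and 3 of 10 lymphoid markers were higher there, 1 of 8 lymphatic markers was lower, and 0 of 6 erythroid markers were either. At that limit 5.57% of all genes were higher in chronic CS and 5.35% were lower. Alveolar epithelial markers summed to 1190 to 5039 CPM in chronic CS against 257.6 to 519.6 CPM in chronic RA, and neutrophil markers to 22.9 to 158.9 CPM against 5.186 to 13.82 CPM. The part of these markers in the chronic values was not tested. Lymphatic markers summed to 14900 to 21220 CPM against 19930 to 22930 CPM in chronic RA.

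The acute comparison sets libraries of sorted LECs after 8 weeks of CS beside those kept in RA, which also differ in the markers of other cells given above. Between acute CS and acute RA, 0 of the 50 members passed the adjusted limit of 0.05 in edgeR's quasi-likelihood test, in which 745 genes (3.47%) did. At an unadjusted p under 0.05, 9 members were higher (18% of members, against 10.7% of all genes) and 1 was lower (2.0%, against 5.0%). The count of 9 was 2 without acute CS M (9.76% of all genes), 2 without acute RA F (7.09%), 4 without acute RA M (6.38%) and 8 without acute CS F (6.71%). DESeq2 called 5 members (Mki67, Aurkb, E2f2 and Cdt1 higher, Tyms lower), where it called 9.15% of all genes. Both CS libraries lay above both RA libraries for 19 members (38.0%, against 27.4% of all genes) and below them for 5 (10%, against 22.5%). With 2 libraries against 2, the exact two-sided permutation test cannot go below 0.333. The median log2 fold change of the members was 0.592, with 37 positive and 13 negative, beside a median of 0.041 over all genes tested.

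The roles differed in these medians. It was 1.47 over the 10 spindle and chromosome genes and 1.06 over the 9 genes of G2 and M, and every one of these 19 was positive. The 4 transcription factors had a median of 1.27, also all positive, while the median was 0.17 over origin licensing and helicase genes, -0.01 over G1 cyclins and kinases and -0.23 over DNA synthesis genes. Most of the mitotic difference stood in 1 library. Acute CS M was the highest of the 4 acute libraries for 18 of the 19 genes of both mitotic roles. The summed level of the spindle genes was 184.2 CPM in acute CS M and 102.6 CPM in CS F, beside 55.2 CPM in acute RA F and 74.4 CPM in acute RA M. That of the G2 and M genes was 177.3 CPM in acute CS M and 86.54 CPM in CS F, beside 66.28 and 74.74 CPM. Without acute CS M, the median of the spindle genes was 0.60 and that of the G2 and M genes -0.10, the median of all members was 0.13, and 3 members were lower at an unadjusted p under 0.05 (4.58% of all genes). As the only male library of its group, acute CS M cannot be told apart from the sex of its mice. The G2 and M median was 0.71 without acute RA F, 1.72 without acute CS F and 1.79 without acute RA M. The transcription factors, by contrast, had nearly the same sum in both CS libraries (34.92 and 36.36 CPM, against 14.78 and 17.74 CPM in RA), and their median was 1.03 to 1.52 with any 1 acute library left out.

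**Figure D3:**
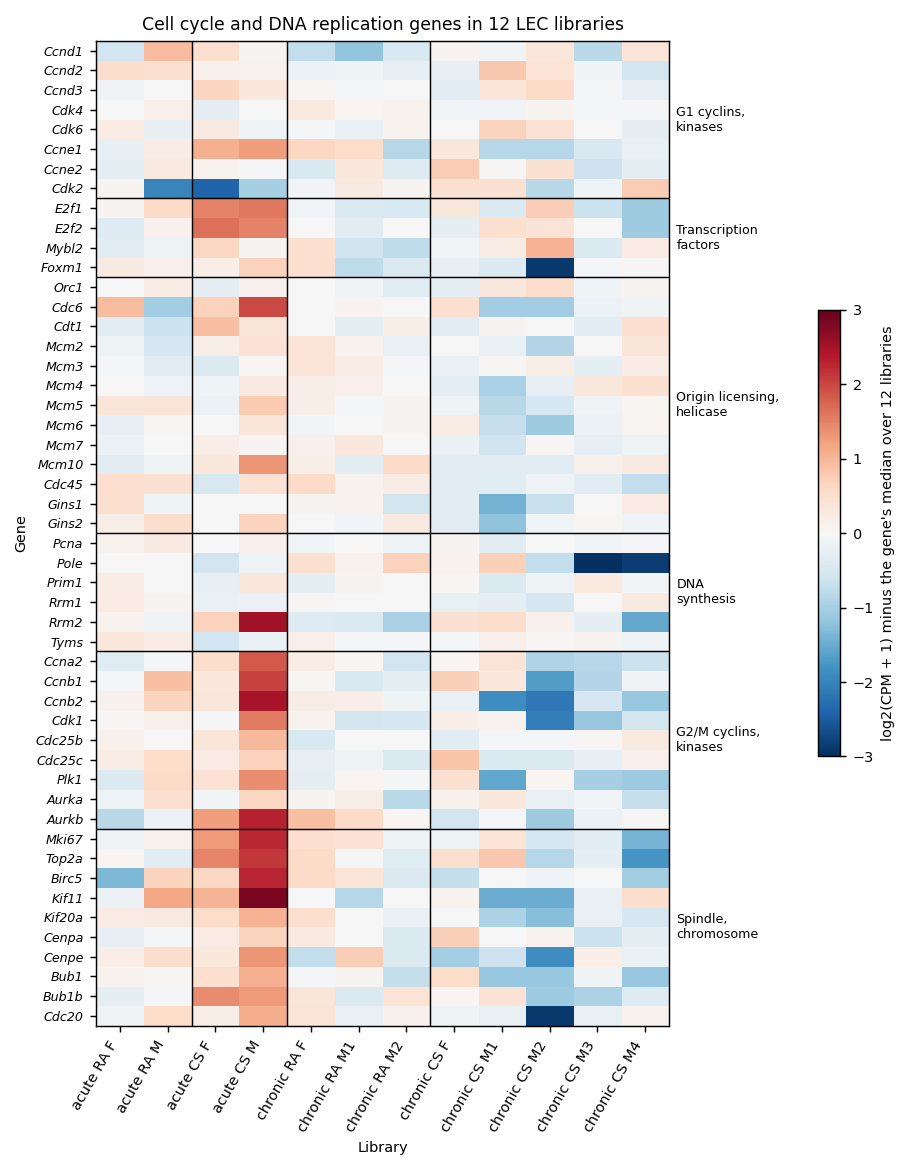
Each row is a member and each column a library, coloured by log2(CPM + 1) minus the gene's median over the 12 libraries, with the scale ending at -3 and 3. The column of acute CS M is red through both mitotic roles, and dark blue cells mark Pole in chronic CS M3 and M4 and the genes at or near 0 in chronic CS M2.

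Mki67 was counted at 13.1 and 27.2 CPM in acute CS F and M, against 4.48 and 5.26 CPM in acute RA F and M. Both CS libraries were above both RA libraries, and CS M was the higher of the CS libraries. The log2 fold change was 2.05 (SE 0.65, edgeR adjusted p = 0.135, and 0.0185 with DESeq2). Aurkb, a kinase of chromosome alignment and cytokinesis, was counted at 4.0 and 9.44 CPM in acute CS F and M against 0.186 and 0.851 CPM in acute RA F and M. The groups did not overlap, and the RA levels were low (log2 fold change 3.69, SE 1.39, edgeR adjusted p = 0.214). Top2a stood at 14.9 and 24.1 CPM against 4.97 and 3.63 CPM. Bub1b, a spindle checkpoint kinase, was the exception among mitotic genes in that acute CS F (8.79 CPM) stood above acute CS M (7.85 CPM), and RA libraries were at 1.98 and 2.50 CPM. For Cdk1, acute CS F (3.10 CPM) lay below both RA libraries (3.28 and 3.63 CPM) and acute CS M at 11.3 CPM. Ccnb2 was at 23.6 CPM in acute CS M, and acute CS F at 4.55 CPM lay between the RA values of 3.8 and 6.0 CPM.

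Among the transcription factors, E2f2, an activating E2F, was counted at 14.6 and 12.8 CPM in acute CS F and M against 2.82 and 4.45 CPM in acute RA F and M. Both CS values were near each other and well above RA (log2 fold change 1.92, SE 0.60, edgeR adjusted p = 0.126). E2f1 stood at 10.5 and 11.3 CPM against 3.36 and 5.15 CPM. Foxm1, the driver of the mitotic wave, overlapped between the groups, with 7.52 and 11 CPM in CS and 7.94 and 7.26 CPM in RA.

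Origin licensing differed by gene. Cdt1, the loader of the MCM ring, was counted at 16.9 and 11.4 CPM in acute CS F and M against 6.61 and 5.20 CPM in acute RA F and M. The groups did not overlap (log2 fold change 1.26, SE 0.39, edgeR adjusted p = 0.119). Mcm2 also lay higher in both CS libraries (28.7 and 34.4 CPM against 22.6 and 17.6 CPM), whereas Mcm3, Mcm4, Mcm5 and Mcm6 overlapped between the groups. Mcm5, for example, was at 23.3 CPM in acute CS F and 46.3 CPM in acute CS M, on either side of the RA values of 34.2 and 34.9 CPM.

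DNA synthesis genes held both the lowest p and opposite directions. Tyms, the thymidylate synthase that makes dTMP, was counted at 26.0 and 34.4 CPM in acute CS F and M against 49.4 and 46.3 CPM in acute RA F and M. Both CS libraries were below both RA libraries, with the log2 fold change at -0.67 (SE 0.18) and the smallest adjusted p of the members, 0.0716 by edgeR. Without acute CS M it was at -0.88 with an adjusted p of 0.0472, and Tyms was then the only member called, where 3.73% of all genes were. That fit assumes that the lone CS library varies like the other groups. Without acute CS F, acute RA F or acute RA M its log2 fold change was -0.48, -0.62 or -0.745 with an edgeR adjusted p of 0.479, 0.364 or 0.246, and with the replicate block the adjusted p was 0.245. Rrm2, the cell cycle regulated subunit of ribonucleotide reductase, stood at 11.8 and 43.9 CPM in CS against 7.54 and 6.26 CPM in RA, while its partner Rrm1 stood at 63.7 and 65.7 CPM in CS against 88.5 and 78.8 CPM in RA. Pcna overlapped between the groups (61.6 and 68.7 CPM against 66.4 and 74.7 CPM). Of the 6 genes of this role, 5 were negative in log2 fold change and Rrm2 was positive.

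G1 cyclins and kinases gave 4 positive and 4 negative log2 fold changes after acute CS, with 0 at an unadjusted p under 0.05 by edgeR. Ccnd3 stood at 230 and 183 CPM in acute CS F and M against 136 and 145 CPM in RA, and Ccnd2 at 142 and 139 CPM against 185 and 181 CPM, so that these D-type cyclins lay on opposite sides of RA. Ccnd1 differed more between the RA libraries (54.1 CPM in acute RA F and 155 CPM in acute RA M) than between the groups. Cdk2, the partner of E-type cyclins, was low in 1 library of each group, with 4.91 CPM in acute CS F and 6.89 CPM in acute RA M against 14.7 CPM in acute CS M and 31.9 CPM in acute RA F.

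Markers of other cells moved with the acute CS libraries, and their part in these values was not tested. Acute CS M, which held most mitotic RNA, had 205.7 CPM of lymphoid markers, and acute CS F had 238.5 CPM, against 20.14 and 24.03 CPM in acute RA. Erythroid markers summed to 698.1 CPM in acute CS M and 10.7 CPM in CS F, with 37.74 and 69.92 CPM in acute RA. Neutrophil markers summed to 1070 CPM in acute CS F and 19.15 CPM in CS M, with 10.16 to 25.5 CPM in acute RA, and 1 of the 6 was at 0 in acute CS M. Alveolar epithelial markers summed to 8777 CPM in acute CS F and 270.7 CPM in CS M, with 1068 to 1866 CPM in acute RA.

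**Figure D4:**
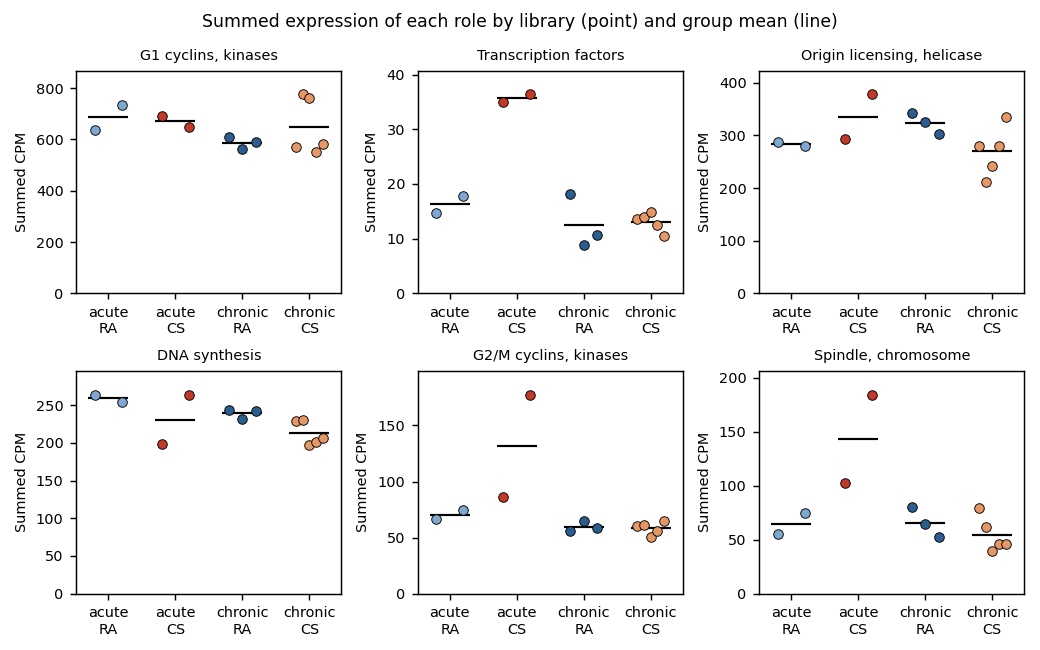
Each panel gives the summed CPM of the members of 1 role on a linear axis from 0, with a point for each library and a line at the group mean. Acute CS stands above the other groups for the transcription factors in both libraries (34.92 and 36.36 CPM) and for the mitotic roles mainly in acute CS M (177.3 and 184.2 CPM).

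Between chronic CS and chronic RA, 0 of the 50 members passed the adjusted limit by edgeR, as did 0 of all genes (0%). DESeq2 called 0 members too, where it called 2.44% of all genes. At an unadjusted p under 0.05, 1 member was higher (2.0%, against 5.57% of all genes) and 2 were lower (4.0%, against 5.35%). With libraries of the same sex and, for chronic males, the same number as a block, 3 members were higher (6.0%, against 4.40% of all genes) and 6 lower (12%, against 7.92%). Chronic CS M3 and M4 have no RA library of their number. With the block, the difference between CS and RA thus comes from chronic CS F, M1 and M2 alone. Scaled by library size alone, 1 was higher (7.23% of all genes) and 0 lower (3.13%). Leaving out single libraries, the count higher was 0 without chronic CS F, M2 or M4 or chronic RA M1 and 1 otherwise, beside 3.61% to 6.26% of all genes. The count lower was 3 without chronic CS F or M1, 1 without chronic CS M4 or any chronic RA library and 2 otherwise, beside 2.97% to 6.43%. The 5 CS libraries lay above all 3 RA libraries for 0 members (against 3.92% of all genes) and below them for 3, which were Cdc45, Ccnb2 and Aurkb (6.0%, against 5.49%). The median log2 fold change was -0.20, with 19 positive and 31 negative, beside 0.014 over all genes. It was -0.57 over the spindle genes (9 of 10 negative), -0.35 over licensing and helicase genes (11 of 13 negative), -0.27 over G2 and M genes, 0.00 over DNA synthesis genes, 0.20 over G1 cyclins and kinases and 0.24 over the transcription factors.

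Chronic CS M2 stood apart from the other chronic libraries in the low genes. It had 0 counts for 12 members, among them Foxm1, Ccnb1, Ccnb2, Cdk1, Aurkb and Kif11, where the other 11 libraries had 0 counts for 0 to 6 members. A count of 0 allows up to 0.125 CPM in this library. The library held 22885446 counts, beside 18821438 in chronic CS F (1 member at 0 counts) and 21596654 in chronic CS M1 (6 members). The part of depth in these values was not tested. Without chronic CS M2 the median was -0.07 over all members, -0.32 over the spindle genes, 0.04 over the G2 and M genes and -0.02 over the transcription factors. Without chronic RA F the median over all members was -0.08 and that over the G2 and M genes 0.00. The G2 and M median was -0.42 without chronic CS F and -0.08 without chronic CS M3, against -0.27 with all libraries.

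Mcm7, a subunit of the MCM ring, was counted at 42.9, 32.4, 50.6, 41.8 and 44.8 CPM in chronic CS F, M1, M2, M3 and M4, against 55.0, 62.1 and 50.2 CPM in chronic RA F, M1 and M2. Only chronic CS M2 reached into the RA range. Its log2 fold change was -0.39 (SE 0.14, edgeR adjusted p = 0.385), the smallest p of the members in this comparison. Cdc45, the helicase cofactor that travels with the MCM ring, was counted at 3.26, 3.26, 3.99, 3.24 and 2.21 CPM in CS against 7.02, 4.72 and 5.21 CPM in RA. The groups did not overlap (exact two-sided permutation p = 0.0357, the smallest possible for 5 against 3), but across all genes the adjusted p was 0.415 by edgeR (log2 fold change -0.83, SE 0.33). Ccnb2 and Aurkb had the same exact p, and Aurkb stood at 0 to 1.15 CPM in CS and 1.19 to 2.91 CPM in RA.

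Ccnd1, the cyclin that couples growth signals to CDK4, was the member higher at an unadjusted p under 0.05. It was counted at 85.8, 76.8, 103, 45.5 and 106 CPM in chronic CS F, M1, M2, M3 and M4, against 47.8, 35.0 and 58.3 CPM in chronic RA F, M1 and M2. Of the CS libraries, 4 lay above every RA library and M3 among them (log2 fold change 0.83, SE 0.35, edgeR adjusted p = 0.440). Cdk4 was counted at 177 to 200 CPM in CS and 197 to 233 CPM in RA (log2 fold change -0.20, SE 0.10, edgeR adjusted p = 0.511). Kif20a, a kinesin of cytokinesis, was counted at 3.52, 1.36, 0.873, 2.90 and 2.21 CPM in CS and 5.42, 3.60 and 2.98 CPM in RA (log2 fold change -0.88, SE 0.45, edgeR adjusted p = 0.491). Mki67 stood at 1.24 to 6.74 CPM in CS and 4.29 to 7.30 CPM in RA.

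Pole, the catalytic subunit of DNA polymerase epsilon, is named outside the rule because of its values. It was at 1.80 and 3.77 CPM in chronic CS M3 and M4, against 19.3 to 55.4 CPM in the other 10 libraries. With all 5 CS libraries its chronic groups overlapped.

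**Figure D5:**
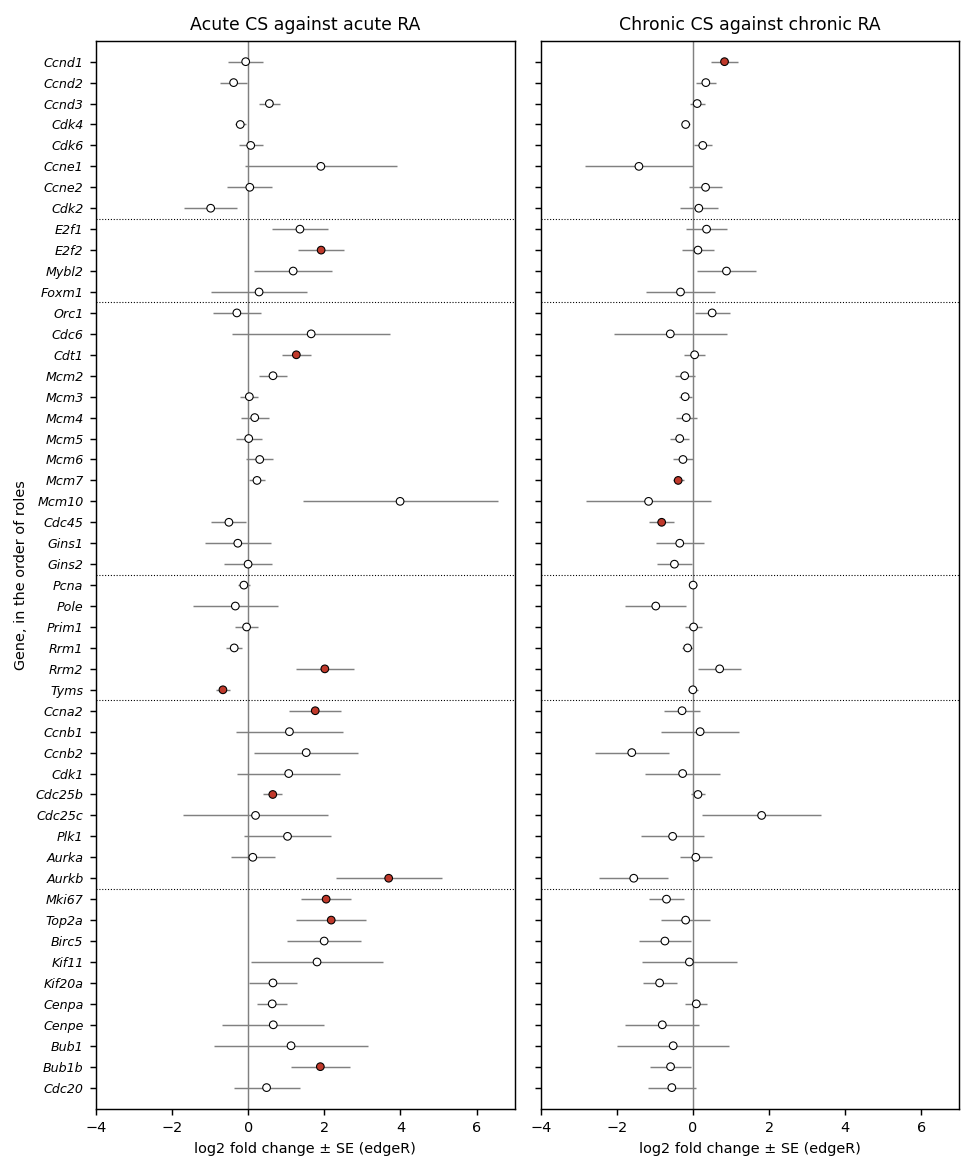
Points are edgeR log2 fold changes with standard errors for the 50 members in the order of roles, acute on the left and chronic on the right, filled where the unadjusted p is under 0.05. In the acute panel 9 filled points lie right of 0 and 1 (Tyms) left of it, and in the chronic panel 1 (Ccnd1) lies right and 2 (Mcm7 and Cdc45) left.

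The RA groups of both time points differ in age and in the pooling described for the acute time point, and the 2 cannot be told apart. By edgeR 0 members and 0 of all genes (0%) passed the adjusted limit between chronic RA and acute RA, and DESeq2 also called 0 members, with 2 left without an adjusted p, where it called 1.18% of all genes. At an unadjusted p under 0.05, 0 members were higher (against 4.52% of all genes) and 2 were lower (4.0%, against 2.50%), which were Ccnd1 and Ccnd2. The count lower was 0 without acute RA M or chronic RA M1 and 1 without any other RA library, and the count higher was 2 without acute RA F and 1 without acute RA M, beside 1.08% to 2.09% and 2.50% to 3.36% of all genes. Markers of other cells also moved, and their part in these values was not tested. Lower in chronic RA at an unadjusted p under 0.05 were 6 of 11 mesenchymal, 1 of 8 leukocyte and 1 of 10 alveolar epithelial markers, and higher were 3 of 8 lymphatic, 3 of 10 lymphoid and 1 of 6 erythroid markers, with 0 of the blood endothelial, alveolar macrophage and neutrophil lists. Mesenchymal markers summed to 414.7 to 472.6 CPM in chronic RA and 861.6 to 897.6 CPM in acute RA, alveolar epithelial markers to 257.6 to 519.6 and 1068 to 1866 CPM, and erythroid markers to 196.1 to 432.7 and 37.74 to 69.92 CPM. The median was -0.16, with 21 positive and 29 negative, and -0.02 without acute RA M. Ccnd2 was counted at 114, 116 and 110 CPM in chronic RA F, M1 and M2 against 185 and 181 CPM in acute RA F and M, with little spread in either group (log2 fold change -0.70, SE 0.31, edgeR adjusted p = 0.708). With only these RA groups in the fit its adjusted p was 0.0455, where 0.229% of all genes were called. Ccnd1 had a log2 fold change of -1.15 (SE 0.42, edgeR adjusted p = 0.640), and without acute RA M, the library at 155 CPM, it was -0.22. Of the other members with the smallest p, Mcm3 had a mean of 70.5 ± 10.2 CPM in chronic RA (SD over 3 libraries) and of 53.5 ± 7.93 CPM in acute RA (SD over 2), with a log2 fold change of 0.40 (SE 0.21). Pcna stood at 59.2 ± 3.19 and 70.5 ± 5.85 CPM (-0.25, SE 0.14), and Aurkb at 2.08 ± 0.862 and 0.519 ± 0.470 CPM (2.0, SE 1.24), all with edgeR adjusted p of 0.739 or more. Without acute RA M the log2 fold changes of Mcm3, Pcna and Aurkb were 0.24, -0.18 and 3.44, and without acute RA F 0.56, -0.34 and 1.28.

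The difference between the acute and the chronic effect of CS was tested in the same fit. By edgeR 0 members passed the adjusted limit, where 97 genes (0.452%) did. At an unadjusted p under 0.05, 8 members had the higher effect after acute CS (16.0%, against 8.17% of all genes) and 1 the lower (2.0%, against 3.71%). The count of 8 was 3 without chronic RA F, 4 without acute RA F or acute RA M, 5 without acute CS F, acute CS M, chronic RA M1 or chronic RA M2, and 8 or 9 without a chronic CS library, where 5.42% to 9.38% of all genes had a higher effect. DESeq2 called 3 members, Mki67 and Aurkb with the higher and Tyms with the lower acute effect, where it called 4.29% of all genes. The difference in log2 fold change for Mki67 was 2.75 (SE 0.79, edgeR adjusted p = 0.171), the smallest of the members.

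The inhibitors that hold the cycle back were read from a list of 10, the CDK inhibitors and the pocket proteins. All 10 had positive log2 fold changes after acute CS (53% of all genes did) with a median of 0.55, but 0 were called by edgeR and 2 were higher at an unadjusted p under 0.05, against 10.7% of all genes. All 10 were also positive between chronic RA and acute RA, without smoke (49.2% of all genes were). Their median was 0.205 (0 at an unadjusted p under 0.05), and both comparisons share the acute RA libraries. The 2 after acute CS were Cdkn2b (p15, an inhibitor of CDK4 and CDK6), counted at 33.1 and 14.6 CPM in acute CS F and M against 1.76 and 3.33 CPM in acute RA F and M (log2 fold change 3.23, SE 0.94, adjusted p = 0.0997 by edgeR), and Cdkn2d (p19), at 34.4 and 34.0 CPM against 15.5 and 19.9 CPM (log2 fold change 0.95, SE 0.28, adjusted p = 0.103). For both the groups did not overlap, and CS lay above RA in this way for 6 of the 10 (27.4% of all genes did). Cdkn2a was at 0 counts in both acute RA libraries and at 0.530 and 0.195 CPM in acute CS. Cdkn1a (p21) was at 121 and 67.4 CPM in acute CS F and M, against 63.7 and 57 CPM in RA. After chronic CS, 7 of 10 were positive (51.3% of all genes were) with a median of 0.18. Cdkn1b (p27) was the 1 at an unadjusted p under 0.05 (5.57% of all genes were higher), with 25.8 to 41.8 CPM in CS and 19.6 to 26.4 CPM in RA (log2 fold change 0.59, SE 0.19, adjusted p = 0.347 by edgeR). Cdkn1a spanned 58.7 to 193 CPM in chronic CS and 70.2 to 86.5 CPM in chronic RA.

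Further genes of the same phases were read from lists of 30 for S phase and 30 for mitosis. The S phase list had 0 genes called and a median of 0.06 after acute CS (16 positive, 14 negative) and -0.12 after chronic CS (8 positive, 21 negative). At an unadjusted p under 0.05, 0 were higher and 2 lower after acute CS (Pola2 and Rfc3), where 10.7% and 5.0% of all genes were, and 2 were higher and 2 lower after chronic CS, where 5.57% and 5.35% were. The mitosis list had 0 genes called and a median of 0.46 after acute CS (21 positive, 9 negative) and -0.05 after chronic CS (12 positive, 16 negative). At an unadjusted p under 0.05, 1 was higher (Cdca8) and 1 lower (Smc4) after acute CS, and 0 after chronic CS, beside the same shares of all genes. Its summed level repeated the contrast between the acute CS libraries, with 679.6 CPM in CS M and 434.1 CPM in CS F on either side of the RA values of 534.9 and 587.6 CPM.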

How the data were processed

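RNA-seq counts of 12 LEC libraries were used. The authors trimmed reads with Skewer, checked quality (FastQC 0.11.9 per the labels), mapped to GRCm38 with STAR and counted reads per gene with its GeneCounts mode, and deposited raw counts per Ensembl gene. The annotation release and strand setting are not given in the sources used here. Identifiers were named with GENCODE M21, and 147 of 52636 were not found there. The tests used edgeR 4.0.16 in R 4.3.3 (TMM, filter by expression, quasi-likelihood F-test, all libraries in 1 fit by group) with Benjamini-Hochberg adjustment over all 21440 genes, and DESeq2 1.42.0 as an alternative, which left 3461 to 5074 of these genes without an adjusted p (its shares are of all 21440). Single genes were also compared by exact permutation tests. The smallest p possible is 0.333 (2 against 2), 0.0357 (5 against 3) or 0.2 (3 against 2). Replicates are pools or mice, so p-values measure the spread between these libraries, and no pair of replicates agreed within sampling noise.

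The members and lists were written by hand and chosen with earlier results of these data known. The genes to name were members past the adjusted limit, the 5 with the smallest p in each of the acute, chronic and RA comparisons, and listed genes past the limit or named in advance (Prox1, Flt4, Ptprc, Epcam, Chil3 and the inhibitors). Fold changes are given for genes within these sets but not for all of them, with Mki67 also in the difference of effects. Other members have levels only, and Pole, Pola2, Rfc3, Cdca8 and Smc4 were named after their values were seen. Medians by role without single libraries and counts at the unadjusted limit were also chosen after seeing the data. Promoters are RefSeq's for GRCm38.p6.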

Additional observations from a re-analysis of the deposited data

Results flagged for a closer look

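In the 5 chronic CS libraries, each member was searched for a library far from the other 4 by the gap to its neighbour over the whole range, at Dixon's 95% critical value. Of 50 members, 2 had such a library, and chance alone marks about 1 in 20. Both were in chronic CS M2. Cdc20 was at 0.582 CPM there and at 9.069 to 11.69 CPM in the other chronic CS libraries, while chronic RA held 9.19 to 14.5 CPM. Cdk4 was at 200.5 CPM there and at 177.4 to 183.8 CPM in the other chronic CS libraries, within the spread to chronic RA (197 to 233 CPM).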

How the results depend on the processing

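Of 84 counts of members called and medians under an alternative, 76 were the same. Same means a count equal or within 1.5 times, or a median moved by no more than the spread between libraries. Of the rest, 6 counts of members called rose and 2 medians moved by more. A change of sign was not scored for these values. DESeq2 called 5 members after acute CS and 3 in the difference of effects, and edgeR called 0 in both. Over all genes DESeq2 called 1961 after acute CS against 745 by edgeR, 524 against 0 after chronic CS, 253 against 0 between the RA groups and 920 against 97 in the difference. Fitting only the groups compared gave 1 member called between the RA groups (Ccnd2), where 42 of 18368 genes were. With chronic CS M3 and M4 as the only chronic CS libraries, 1 member (Pole) was called after chronic CS, where 16 of 21078 genes were, and 1 (Pole) in the difference, where 101 were. These calls restate its low CPM in those libraries, and with chronic CS F, M1 and M2 only 0 members were called in either. Leaving out single libraries, members called after acute CS ranged from 0 to 1 (Tyms, without acute CS M, where 858 of 23008 genes were called and the lone CS library is assumed to vary like the other groups), the acute median of the members from 0.13 (without acute CS M) to 0.73, the chronic median from -0.29 to -0.07 and that between the RA groups from -0.16 to -0.02. The replicate block joins libraries of the same sex within a time point and, for chronic males, of the same number, since acute and female libraries carry none. Such libraries did not deviate together (correlations from -0.042 to 0.069), so they were not taken as pairs. With a replicate block the chronic median was -0.39, the acute median was 0.55 and 0 members were called after acute CS, after chronic CS or in the difference, where it called 73 genes after acute CS, against 745 without it. After chronic CS the block gave 3 members higher and 6 lower at an unadjusted p under 0.05 (4.40% and 7.92% of all genes), against 1 and 2. At that limit, fitting only the groups compared gave 13 members higher and 3 lower after acute CS (12.7% and 5.98% of all genes; 9 and 1 with all groups) and 2 and 5 between the RA groups (10.7% and 6.87%; 0 and 2 with all). After chronic CS these counts were 3 and 4 with chronic CS F, M1 and M2 only (6.81% and 8.53% of all genes). They were 0 and 6 with M3 and M4 only (6.03% and 5.69%), and 1 and 2 with all (5.57% and 5.35%). Library size in place of TMM moved the median of all genes to 0.10 after chronic CS and -0.10 between the RA groups, and called 0 members. No filter on low counts (32088 genes) called 0 members. Among the 15 named fold changes, 158 of 165 values kept their side of the limit, and the other 7 crossed into it (5 with DESeq2, Ccnd2 and Tyms as above). The cause of these changes was not tested, except that the leave-one-out and single-group settings use fewer libraries. The block also draws the chronic effect from chronic CS F, M1 and M2 alone, since M3 and M4 have no RA library of their number. Low members limit the depth, since 20 members lie below 1 FPKM in RA.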
